A study of Homo sapiens with 16 samples.

Results

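The genes described here are the nuclear genes that encode the subunits of the mitochondrial respiratory chain and the ATP synthase. They were found by name: every row of the deposited gene tables whose NCBI gene number maps to a protein-coding symbol starting NDUFA, NDUFB, NDUFC, NDUFS, NDUFV, UQCR, COX4, COX5, COX6, COX7, COX8 or ATP5, or to SDHA, SDHB, SDHC, SDHD, CYC1 or CYCS, with the assembly factors of the NDUFAF group left out. This gave 91 of 27434 rows, with 37 genes of complex I, 4 of complex II, 10 of complex III, 19 of complex IV, 20 of the ATP synthase (complex V) and cytochrome c itself. A total of 3 of the 91 carry an older symbol of this kind: COXFA4 (formerly NDUFA4), COXFA4L2 (formerly NDUFA4L2) and DMAC2L (formerly ATP5S). DMAC2L is not a structural subunit of the ATP synthase, and the COXFA4 product is a subunit of complex IV in spite of its former name. In 4 rows the files join the gene with a neighbour, so that the value covers both: ATP5MK with MIR1307, ATP5MF with a readthrough of PTCD1, NDUFC2 with a readthrough of KCTD14, and ATP5F1E with PRELID3B.

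The RNA-seq data comprise 16 poly(A) libraries, 2 for each of 8 groups, of 2 human cancer cell lines: U2OS, an osteosarcoma line, and HCT116, a colorectal carcinoma line. Wild-type U2OS cells received siRNA against SAM68, set against a non-targeting control siRNA, or a plasmid carrying the mouse SAM68 coding sequence (pcDNA3-HA-SAM68), set against the pcDNA3.1(+) control plasmid. HCT116 cells, either SAM68 knockout or wild type, received siRNA against NORAD, a long noncoding RNA induced by DNA damage, set against the control siRNA. siRNAs were used at 50 nM and plasmids at 100 ng per 20000 cells, for 48 h, and every cell was transfected with a Lipofectamine reagent. SAM68, encoded by KHDRBS1, is an RNA-binding protein of the STAR family. The number of knockout clones behind the 4 knockout libraries is not given in the sources used here. Nor do the labels say that the paired libraries in a group were grown as separate cultures. The p-values therefore reflect just the variation among these libraries, and that variation may be technical.

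The respiratory chain sits in the inner mitochondrial membrane. Complex I oxidises NADH and complex II oxidises succinate. Both pass electrons through ubiquinone to complex III, from there through cytochrome c to complex IV, and oxygen is reduced there. Complexes I, III and IV pump protons, and the ATP synthase uses the gradient to make ATP. A few core subunits are encoded in mitochondrial DNA, which is not analysed here, and all others are encoded in the nucleus, made in the cytosol and imported. Many of the nuclear genes are known targets of the transcription factors NRF1, GABPA (an ETS factor) and YY1.

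Library totals ranged from 11349545 to 27387412 expected counts. The targeted genes followed the labels. KHDRBS1 stood at 75.4 and 48.2 CPM (counts divided by the library total and its TMM factor) with SAM68 siRNA, against 229 and 232 CPM with control siRNA. In cells given the SAM68 plasmid it stood at 523 and 589 CPM, against 220.4 and 273 CPM in cells given the control plasmid. In HCT116 it stood at 32.5 to 45.6 CPM in the 4 knockout libraries and at 215 to 250.4 CPM in the 4 wild-type libraries. NORAD stood at 78.7 and 56.0 CPM with NORAD siRNA in knockout cells, against 231 and 259 CPM with control siRNA, and at 52.3 and 48.8 CPM with NORAD siRNA in wild-type cells, against 258 and 241 CPM with control siRNA. The line labels were checked on fixed markers. A set of 12 mesenchymal and bone markers summed to 3175 to 5192 TPM (a level per transcript length, scaled to a common total) in U2OS and 9.22 to 14.8 TPM in HCT116, and 12 markers of colon epithelium summed to 930.1 to 1300.1 TPM in U2OS and 4209 to 5419 TPM in HCT116. TWIST1 was listed at 0 in every U2OS library, and VIL1 and CDX1 in every HCT116 library. All 8 markers of blood, endothelium and liver stayed under 1 TPM in every library.

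Start regions of 5 genes are shown here because they carry motifs of the factors named above and their levels come up below. Some other genes named below carry none of these motifs in their start regions, among them NDUFB6 and NDUFA5. Others do carry a motif but are not shown, among them NDUFS7 (YY1), NDUFB7 (ETS) and UQCRFS1 (NRF1). RefSeq gives a window of 250 bases before to 50 after the transcription start (build GRCh38.p14) for 73 of the 91 genes. The motifs searched on both strands were NRF1 (GCGCA, any base, then GCGC), ETS (CCGGAAG) and YY1 (AAGATGGC), and the capitals mark the matches. NDUFS1 (chr2:206159395-206159694, minus strand), which encodes the largest iron-sulfur subunit of complex I, holds 1 ETS match. SDHD (chr11:112086623-112086922, plus strand), a membrane anchor of complex II, holds 1 NRF1 and 1 ETS match. ATP5MK (chr10:103396426-103396725, minus strand), a small membrane subunit of the ATP synthase, holds 3 ETS matches, of which a pair on opposite strands overlap. UQCR11 (chr19:1605413-1605712, minus strand), a small subunit of complex III, holds 2 NRF1 and 2 ETS matches. SDHA (chr5:218070-218369, plus strand), the flavoprotein of complex II, holds 4 NRF1 matches.
NDUFS1: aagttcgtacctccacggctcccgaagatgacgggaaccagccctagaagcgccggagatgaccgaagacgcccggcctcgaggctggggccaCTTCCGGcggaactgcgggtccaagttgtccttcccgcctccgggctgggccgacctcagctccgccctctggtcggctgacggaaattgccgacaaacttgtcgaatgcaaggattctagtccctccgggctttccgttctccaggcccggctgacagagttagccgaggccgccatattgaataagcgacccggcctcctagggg
SDHD: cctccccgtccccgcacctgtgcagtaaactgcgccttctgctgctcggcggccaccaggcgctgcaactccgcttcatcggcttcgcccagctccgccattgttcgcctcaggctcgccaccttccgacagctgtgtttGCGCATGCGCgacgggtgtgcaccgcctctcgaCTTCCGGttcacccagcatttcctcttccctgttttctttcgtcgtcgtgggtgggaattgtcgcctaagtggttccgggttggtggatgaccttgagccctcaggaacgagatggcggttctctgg
ATP5MK: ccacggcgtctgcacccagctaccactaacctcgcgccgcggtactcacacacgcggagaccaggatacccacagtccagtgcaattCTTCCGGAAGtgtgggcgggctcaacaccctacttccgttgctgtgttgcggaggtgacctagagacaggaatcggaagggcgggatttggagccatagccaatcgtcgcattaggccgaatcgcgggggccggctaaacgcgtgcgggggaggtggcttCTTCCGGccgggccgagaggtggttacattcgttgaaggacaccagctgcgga
UQCR11: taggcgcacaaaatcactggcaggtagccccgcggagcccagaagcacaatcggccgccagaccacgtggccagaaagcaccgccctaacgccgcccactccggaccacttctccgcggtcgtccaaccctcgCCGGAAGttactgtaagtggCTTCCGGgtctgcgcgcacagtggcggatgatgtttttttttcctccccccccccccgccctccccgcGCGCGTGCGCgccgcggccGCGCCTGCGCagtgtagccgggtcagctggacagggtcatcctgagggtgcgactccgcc
SDHA: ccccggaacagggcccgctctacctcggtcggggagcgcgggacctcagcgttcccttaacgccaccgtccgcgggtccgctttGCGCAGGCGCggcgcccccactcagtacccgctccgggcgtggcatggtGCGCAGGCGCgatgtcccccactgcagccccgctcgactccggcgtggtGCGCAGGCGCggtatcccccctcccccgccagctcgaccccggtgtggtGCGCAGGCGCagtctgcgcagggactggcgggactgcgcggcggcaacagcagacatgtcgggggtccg

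Across the 73 windows, 17 held the NRF1 motif (23.3%, against 8.58% of 15843 protein-coding windows of the same length). The ETS motif was in 20 (27.4%, against 14.2%) and the YY1 motif in 11 (15.1%, against 3.91%). At least 1 of the motifs was present in 39 windows, none was present in 34, and none of the windows held all 3. For comparison, the ETS motif was in 42.0% of 69 windows of mitochondrial ribosomal protein genes. It was in 31.0% of 71 windows of cytosolic ribosomal protein genes. The NRF1 motif was in 11.6% of the mitochondrial and 9.86% of the cytosolic windows. The YY1 motif was in 28.99% of the mitochondrial windows, a higher share than in the respiratory chain windows, and in 11.27% of the cytosolic ones. A match to these letters is a description of the sequence and not evidence of binding.

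Most of the genes were strongly expressed in both lines. Of the 91, 71 averaged above 100 TPM over the 16 libraries and 8 averaged under 5 TPM. In complex I the most abundant transcript by the mean over the 16 libraries was NDUFS5, an accessory subunit, with 767 to 1109 TPM in U2OS (median 785) and 780.0 to 995 TPM in HCT116 (median 912). In U2OS alone NDUFB9, another accessory subunit, had a higher median of 837 TPM. The least abundant was NDUFA5, also an accessory subunit, with 8.83 to 18.4 TPM in U2OS (median 13.8) and 13.4 to 25.1 TPM in HCT116 (median 15.4). All 37 complex I genes passed the filter on low counts in both lines. The median complex I gene stood at 164 TPM in U2OS and 170.02 TPM in HCT116.

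The 4 genes of complex II were spread around 100 TPM. SDHB, the iron-sulfur subunit, had a median of 231 TPM in U2OS and 327 TPM in HCT116. The membrane anchor SDHC had a median of 74.2 TPM in U2OS and 81.0 TPM in HCT116, and the anchor SDHD one of 241 TPM in U2OS and 192 TPM in HCT116. SDHA had medians of 62.6 TPM in U2OS and 84.8 TPM in HCT116. SDHD ranked first in U2OS and SDHB in HCT116, but in U2OS the ranges of these genes overlapped (SDHD 170.1 to 297 TPM, SDHB 179.8 to 268 TPM).

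In complex III, UQCRH, the hinge protein, led with 659.9 to 999.6 TPM in U2OS (median 783) and 1011 to 1284 TPM in HCT116 (median 1144). CYC1, which encodes cytochrome c1, followed with medians of 467 TPM in U2OS and 542 TPM in HCT116. UQCRHL, a near-identical copy of UQCRH, was the lowest member, at 11.4 to 43.5 TPM in U2OS and 0.66 to 16.9 TPM in HCT116. Its value is uncertain, since reads can be shared between the copies. CYCS, the cytochrome c that shuttles between complexes III and IV, had medians of 89.2 TPM in U2OS and 101 TPM in HCT116.

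Complex IV held both abundant and silent genes, and several of its subunits have tissue forms. By the mean over the 16 libraries COX7C led, with 973 to 1429 TPM in U2OS (median 1127) and 1419 to 2019.7 TPM in HCT116 (median 1695). The general forms were expressed throughout. In U2OS their medians were 929 TPM for COX4I1, 790.02 TPM for COX6A1, 851 TPM for COX6B1, 1123 TPM for COX7B, 643 TPM for COX8A and 156 TPM for COXFA4. In HCT116 they were 1212 TPM for COX4I1, 1137 TPM for COX6A1, 647 TPM for COX6B1, 815 TPM for COX7B, 766 TPM for COX8A and 141 TPM for COXFA4. The heart and muscle forms COX6A2 and COX7A1, the lung-enriched COX4I2 and the testis-enriched COX7B2 and COX8C stayed at or near 0. COX6A2 and COX4I2 had no count in any of the 16 libraries, which allows up to 3 counts per library, or 0.110 to 0.264 CPM, a limit that covers counting error only. The maximum in any library was 3 expected counts for COX7A1, 1 for COX7B2 and 1 for COX8C. COX6B2, the testis form of COX6B1, was read at 0.32 to 1.84 TPM in U2OS and 0.54 to 1.41 TPM in HCT116, and COXFA4L2 at up to 0.33 TPM in U2OS and 0.44 to 1.39 TPM in HCT116. Of 8 muscle and heart markers, 4 stayed under 1 TPM in every library, and the list summed to 40.8 to 64.2 TPM in U2OS and 19.8 to 32.1 TPM in HCT116.

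The ATP synthase row ATP5F1E, which encodes the epsilon subunit and is joined with PRELID3B, had the highest value of all, with 2253 to 2594 TPM in U2OS (median 2305) and 1568.5 to 2065 TPM in HCT116 (median 1701). ATP5F1B, the catalytic beta subunit, had 649.9 to 833 TPM in U2OS (median 787) and 1229.6 to 1389.8 TPM in HCT116 (median 1343). ATP5IF1, the inhibitor that stops the enzyme from running in reverse, had 157 to 215 TPM in U2OS (median 182) and 343 to 430.1 TPM in HCT116 (median 403), with no overlap. ATP5MGL was the lowest member, at most 2.06 expected counts in any library.

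**Figure D1:**
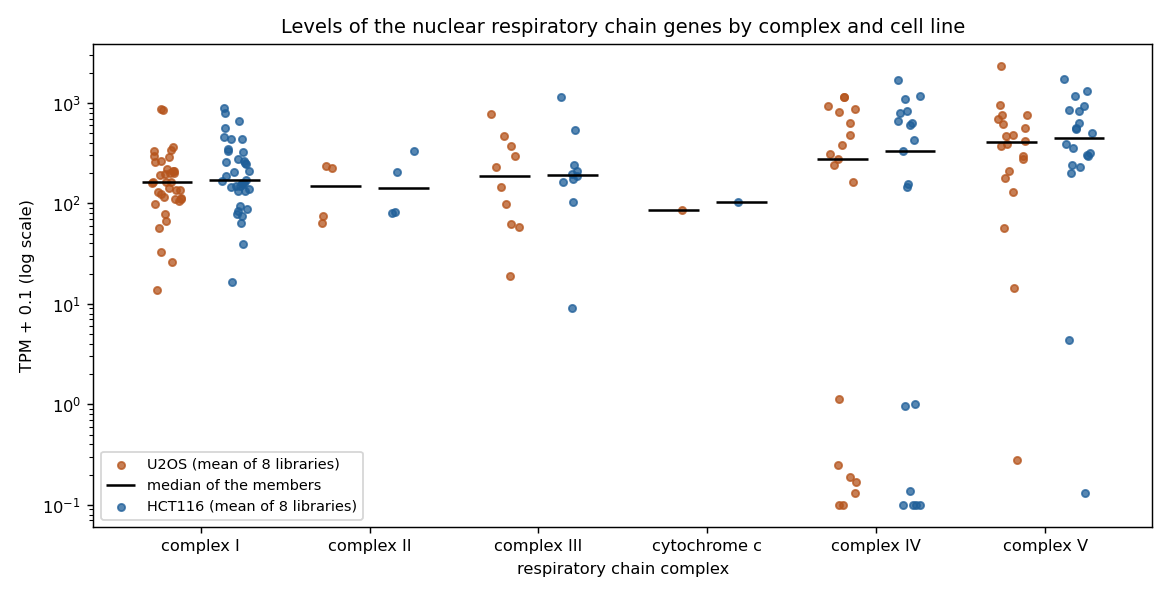
Level of each gene (mean TPM of 8 libraries per line plus 0.1, log scale) by complex, U2OS left of HCT116, with the median of each set as a bar. Complexes IV and V hold the most abundant genes, led by ATP5F1E and COX7C, and the points at the bottom of complex IV are the tissue forms at or near 0.

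Summed over the genes of a complex, and with all 91 rows counted, the median library held 7368 TPM of complex I in U2OS and 9513 TPM in HCT116. Complex II summed to 603 TPM in U2OS and 679.8 TPM in HCT116, and complex III to 2547 TPM in U2OS and 3017 TPM in HCT116. Complex IV summed to 7315 TPM in U2OS and 8636 TPM in HCT116, and complex V to 10008 TPM in U2OS and 11285 TPM in HCT116. All 91 genes together summed to 25736 to 32533 TPM in U2OS and 31441 to 35570 TPM in HCT116. Whether a lower level reflects fewer transcripts per cell in all cells or in some of them cannot be told apart in bulk RNA.

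The genes moved together between libraries of the same group, and this bears on every comparison that follows. The median of the tested genes' deviation from the mean of their line (log2 CPM) was -0.35 and -0.12 in the SAM68 siRNA libraries, -0.15 and -0.32 in their controls, 0.58 and 0.06 in the SAM68 plasmid libraries, and 0.15 and 0.14 in the control plasmid libraries. In replicate 1 of the SAM68 plasmid group, 81 of 84 genes lay above their line mean. In HCT116 the median deviation was 0.17 and -0.08 in knockout cells with NORAD siRNA, 0.10 and -0.17 in knockout cells with control siRNA, 0.12 and -0.02 in wild-type cells with NORAD siRNA, and 0.02 and -0.17 in wild-type cells with control siRNA. In each of these 4 groups, 73 to 78 of 85 genes were lower in the library numbered 2 than in the one numbered 1. Cytosolic and mitochondrial ribosomal protein genes shifted in the same direction as the respiratory chain genes in all 16 libraries, while the median of all tested genes stayed between -0.02 and 0.03. The 85 genes are short, with a median transcript length of 827 bases against 2936 bases for all tested genes of HCT116, and share a usual GC content (median 49.9% against 49.8%). The part of transcript length in these shifts was not tested.

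**Figure D2:**
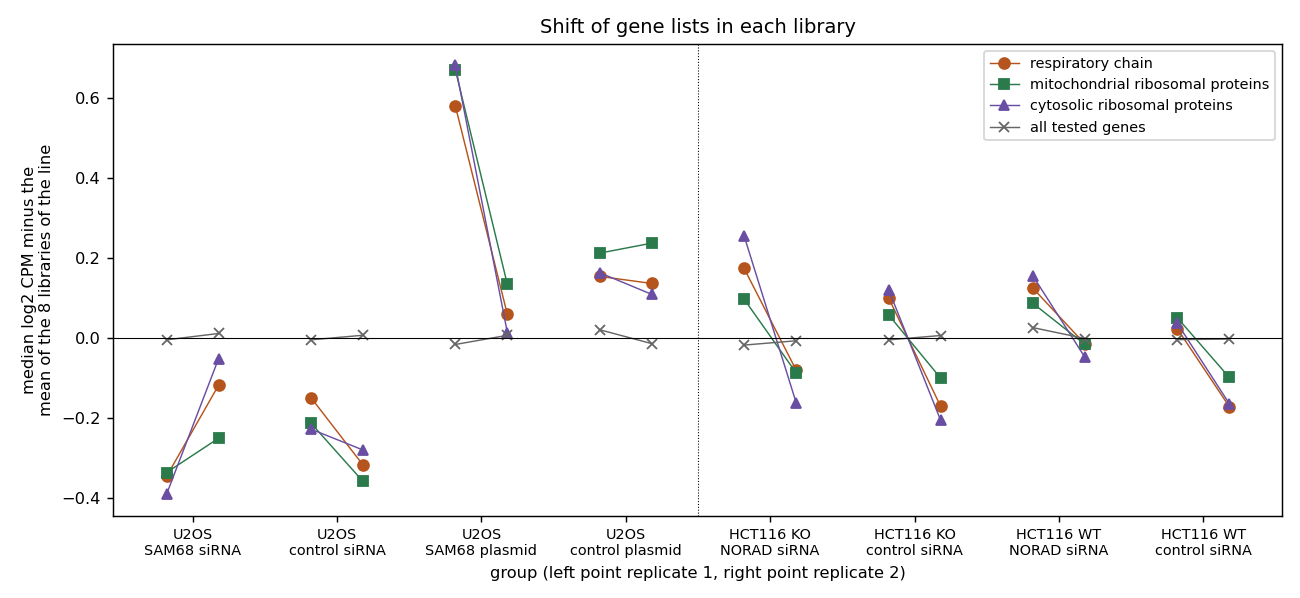
Median deviation of log2 CPM from the mean of the 8 libraries of a line, for the respiratory chain genes, 2 ribosomal protein lists and all tested genes, with both libraries of each group joined by a line. Replicate 1 of the SAM68 plasmid group reaches 0.58 for the respiratory chain genes, and all tested genes stay near 0.

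SAM68 siRNA in U2OS left the respiratory chain genes without a called change. With edgeR's quasi-likelihood test, adjusted over all genes by the Benjamini-Hochberg method at a threshold of 0.05, 0 of the 84 tested genes were called, against 0.00639% of all 15658 tested genes. Over all genes 1 was called higher and 0 lower, so the fall of the targeted KHDRBS1 was itself not called. In simulated counts for this comparison, 32% of changes of 1 on the log2 scale were recovered. Smaller changes can thus go uncalled here. Among the 84 genes 1 had an unadjusted p below 0.05 (1.19%, against 1.06% of all genes), and DESeq2 called 0 of the 84. The log2 fold change was positive for 34 genes and negative for 50, with a median of -0.04, against -0.01 for all genes. The median turned positive when replicate 1 of the SAM68 siRNA group was left out (0.13) or when replicate 1 of its controls was (0.09). UQCRHL, the uncertain copy of UQCRH, had the smallest p: it stood at 7.48 and 3.16 CPM with SAM68 siRNA, against 2.52 and 2.17 CPM with control siRNA. Its log2 fold change was 1.14 ± 0.49 (SE; edgeR adjusted p = 1), and 0.44 without replicate 1 of the SAM68 siRNA group. COX6B2 stood at 1.28 and 1.14 CPM with SAM68 siRNA and 0.384 and 1.01 CPM with control siRNA, a level of few counts. UQCRC2, a core protein of complex III, had 94.2 and 92.3 CPM with SAM68 siRNA, against 109 and 108 CPM with control siRNA, a log2 fold change of -0.27 ± 0.16 (SE; edgeR adjusted p = 1). NDUFAB1, the mitochondrial acyl carrier protein, had 30.7 and 39.9 CPM with SAM68 siRNA and 52.9 and 33.9 CPM with control siRNA, so its groups overlapped.

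Among related lists in the same comparison, edgeR called 0 of 51 assembly factors, 0 of 22 regulators of mitochondrial genes, 0 of 19 citrate cycle genes, 0 of 78 mitochondrial ribosomal protein genes and 0 of 19 glycolysis genes. None of these genes had an unadjusted p below 0.05, and DESeq2 called 0 of them. Their medians lay between -0.04 and 0.00 on the log2 scale.

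With the SAM68 plasmid in U2OS, 76 of 84 genes had a positive log2 fold change, with a median of 0.20 against 0.01 for all genes. edgeR called 0 of the 84, against 0.00639% of all genes, and DESeq2 called 0. An unadjusted p below 0.05 was found for 1 gene (1.19%, against 0.549% of all genes). In 7 genes both plasmid libraries lay above both controls (9.87% of all genes did) and in 1 gene both lay below (8.44% of all genes did). The median rests on 1 library: without replicate 1 of the SAM68 plasmid group it was -0.09, and without replicate 2 of that group 0.46. Cytosolic ribosomal protein genes had a median of 0.25, with 83 of 84 positive, and mitochondrial ones a median of 0.18, with 70 of 78 positive, in the same libraries. NDUFS7, a core iron-sulfur subunit of complex I, stood at 17.6 and 12.9 CPM with the SAM68 plasmid, against 9.38 and 11.1 CPM with the control plasmid, a log2 fold change of 0.58 ± 0.25 (SE; edgeR adjusted p = 1) that became 0.34 without replicate 1 of the SAM68 plasmid group. NDUFB7, an accessory subunit, stood at 49.2 and 31.0 CPM with the SAM68 plasmid, against 23.0 and 29.2 CPM with the control plasmid. On the other side, UQCRHL had 3.25 and 3.05 CPM with the SAM68 plasmid and 5.96 and 2.48 CPM with the control plasmid. DMAC2L had 12.4 and 11.7 CPM with the SAM68 plasmid and 13.3 and 13.1 CPM with the control plasmid. By complex, the median was 0.26 in complex I (36 of 37 positive), 0.02 in complex II (2 of 4), 0.15 in complex III (9 of 10), 0.26 in complex IV (12 of 13) and 0.17 in complex V (16 of 19).

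NORAD siRNA in wild-type HCT116 left the genes without a called change. edgeR called 0 of 85 genes, against 0.00727% of all 13764 tested genes, and DESeq2 called 0. An unadjusted p below 0.05 was found for 0 of the 85, against 1.32% of all genes. The log2 fold change was positive for 73 genes and negative for 12, with a median of 0.09 against 0.00 for all genes. Both NORAD siRNA libraries lay above both controls for 13 genes, where 12.7% of all genes did, and below them for 1 gene, where 14.1% of all genes did. The median became 0.02 when the first NORAD siRNA library was left out, 0.14 when the second was, 0.18 when the first control library was left out and 0.00 when the second was. NDUFA2, an accessory subunit of complex I, had 63.3 and 55.5 CPM with NORAD siRNA and 57.2 and 41.4 CPM with control siRNA. COX6B2 had 1.38 and 0.598 CPM with NORAD siRNA and 0.517 and 0.699 CPM with control siRNA. CYCS had 311 and 282 CPM with NORAD siRNA and 357 and 294 CPM with control siRNA, and DMAC2L had 4.32 and 2.66 CPM with NORAD siRNA and 3.77 and 4.34 CPM with control siRNA. The groups of all 4 overlapped.

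In SAM68 knockout HCT116, NORAD siRNA again gave no called change, with a wider spread of fold changes among the genes. edgeR called 0 of 85 genes, against 0.00727% of all genes, DESeq2 called 0, and 7 had an unadjusted p below 0.05 (8.24%, against 11.3% of all genes). The log2 fold change was positive for 61 genes and negative for 24, with a median of 0.09. This median became -0.04 when the first NORAD siRNA library or the second control library was left out, 0.22 when the second NORAD siRNA library was, and 0.26 when the first control library was. Both NORAD siRNA libraries lay above both controls for 16 genes (20.4% of all genes did) and below them for 4 (22.8% of all genes did). ATP5MK had the smallest p: it stood at 237 and 228 CPM with NORAD siRNA, against 165 and 172 CPM with control siRNA. Its log2 fold change was 0.47 ± 0.10 (SE; adjusted p = 0.43 by edgeR). ATP5F1C, the gamma subunit of the central stalk, stood at 401 and 344 CPM with NORAD siRNA, against 312 and 281 CPM with control siRNA, a log2 fold change of 0.34 ± 0.11 (SE; edgeR adjusted p = 0.43) that became 0.21 without the first NORAD siRNA library. ATP5F1D, the delta subunit, stood at 63.2 and 69.8 CPM with NORAD siRNA, against 111 and 75.8 CPM with control siRNA (log2 fold change -0.48 ± 0.33, SE; edgeR adjusted p = 0.55). Without the first control library that fold change was -0.17, and without the second -0.74. COXFA4L2 stood at 0.339 and 0.411 CPM with NORAD siRNA and 0.909 and 0.707 CPM with control siRNA, from at most 16 counts.

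These fold changes ran with GC content. Across the 85 genes, Spearman's rho between the log2 fold change of NORAD siRNA and the GC content of the transcript was -0.84 in knockout cells and 0.51 in wild-type cells. Over the 13506 tested genes with a GC value it was -0.70 in knockout cells and 0.40 in wild-type cells. Genes of 1 fit share their libraries and are not independent replicates, so these are descriptions. Within a library, deviation from the line mean ran with GC content at a rho of -0.62 and -0.72 over the genes with a GC value in the knockout NORAD siRNA libraries. It was 0.47 and -0.47 in the knockout control libraries, 0.68 and 0.47 in the wild-type NORAD siRNA libraries, and 0.65 and -0.14 in the wild-type control libraries. The part of GC content in the fold changes of single genes was not tested.

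The NORAD siRNA effect in knockout cells was then set against that in wild-type cells. edgeR called 0 of 85 differences, against 0% of all genes, and DESeq2 called 0. An unadjusted p below 0.05 was found for 3 of the 85 (3.53%, against 7.61% of all genes). The median difference was -0.01 on the log2 scale, with 42 genes positive and 43 negative, and its sign turned with the library left out (-0.17 to 0.15). ATP5MK had a difference of 0.53 ± 0.14 and SDHD one of 0.43 ± 0.17 (SE; edgeR adjusted p = 0.64 for both). NDUFS8, a core iron-sulfur subunit of complex I, had a difference of -0.54 ± 0.31 with the same adjusted p. Without knockout NORAD siRNA replicate 1 the difference for SDHD was 0.26, and without wild-type control siRNA replicate 2 that for NDUFS8 was -0.22. SDHD itself stood at 213 and 172 CPM in knockout cells with NORAD siRNA, against 146 and 159 CPM with control siRNA, and at 133 and 141 CPM in wild-type cells with NORAD siRNA, against 149 and 140.2 CPM with control siRNA. The direction differed between the genotypes, but the test of the difference did not pass. COXFA4L2 had a difference of -1.61 ± 0.74 (SE) at counts too low to read.

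Knockout cells were compared with wild-type cells in 2 ways, which share libraries with the NORAD comparisons. Under control siRNA alone, edgeR called 0 of 85 genes, against 0.312% of all genes. DESeq2 called 0 of the 85, and 114 of all 13764 tested genes. An unadjusted p below 0.05 was found for 4 of the 85 (4.71%, against 9.22% of all genes). The log2 fold change was positive for 43 genes and negative for 42, with a median of 0.00. COX6C, a small subunit of complex IV, stood at 212 and 208 CPM in knockout cells, against 172 and 163 CPM in wild-type cells, a log2 fold change of 0.34 ± 0.11 (SE; edgeR adjusted p = 0.37). NDUFB5, an accessory subunit of complex I, stood at 82.2 and 86.1 CPM in knockout cells, against 66.6 and 63.0 CPM in wild-type cells, a log2 fold change of 0.39 ± 0.13 (SE; edgeR adjusted p = 0.38). UQCRHL stood at 1.74 and 0.132 CPM in knockout cells and 3.91 and 2.20 CPM in wild-type cells. COX8A stood at 169 and 124 CPM in knockout cells and 210.5 and 142 CPM in wild-type cells, with overlap.

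As the mean over both siRNAs, with 4 knockout against 4 wild-type libraries, 7 genes were higher in knockout cells and 0 lower. That is 8.24% of the 85, against 17.6% of all tested genes, of which 11% were called higher and 6.62% lower. An unadjusted p below 0.05 was found for 17 genes, or 20% of the 85, against 36.1% of all genes. DESeq2 called 11 of the 85, 1 of them, COX8A, lower, against 19.4% of all genes. In 8 genes every knockout library lay above every wild-type library (9.47% of all genes did) and in 0 below (9.44% of all genes did). The called genes belong to complexes I, II, IV and V: NDUFB5, NDUFS1, NDUFB6 and NDUFA5 of complex I, SDHD of complex II, COX6C of complex IV and ATP5MK of complex V. The median over the 85 genes was 0.01, against -0.01 for all genes.

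NDUFB5 had the smallest p. It stood at 116 and 89.7 CPM in knockout cells with NORAD siRNA and 82.2 and 86.1 CPM with control siRNA, against 67.3 and 66.6 CPM in wild-type cells with NORAD siRNA and 66.6 and 63.0 CPM with control siRNA. Its log2 fold change was 0.51 ± 0.09 (SE; edgeR adjusted p = 0.0114), with no overlap. COX6C stood at 268 and 223 CPM in knockout cells with NORAD siRNA and 212 and 208 CPM with control siRNA, against 178 and 178 CPM in wild-type cells with NORAD siRNA and 172 and 163 CPM with control siRNA (0.41 ± 0.08, SE; adjusted p = 0.0132 by edgeR). NDUFS1, whose start region is shown above, stood at 193 and 184 CPM in knockout cells with NORAD siRNA and 169 and 169.9 CPM with control siRNA, against 145 and 146 CPM in wild-type cells with NORAD siRNA and 134 and 148 CPM with control siRNA. Its log2 fold change was 0.33 ± 0.07 (SE; edgeR adjusted p = 0.0163). In all 3 genes the lowest knockout library stood above the highest wild-type library.

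NDUFB6, an accessory subunit of the membrane arm, stood at 80.3 and 70.1 CPM in knockout cells with NORAD siRNA and 67.3 and 64.0 CPM with control siRNA, against 56.6 and 49.7 CPM in wild-type cells with NORAD siRNA and 58.9 and 48.9 CPM with control siRNA (0.41 ± 0.09, SE; adjusted p = 0.022 by edgeR). NDUFA5 stood at 94.6 and 62.0 CPM in knockout cells with NORAD siRNA and 56.7 and 54.1 CPM with control siRNA, against 49.5 and 45.1 CPM in wild-type cells with NORAD siRNA and 51.0 and 43.8 CPM with control siRNA (0.49 ± 0.13, SE; adjusted p = 0.0331 by edgeR). These genes also had no overlap. But 1 library, knockout with NORAD siRNA replicate 1, held the highest value of both and of every other called gene. SDHD, with the values given above, had a log2 fold change of 0.30 ± 0.09 (SE; edgeR adjusted p = 0.0425), and its groups overlapped. Without that same library the log2 fold change was 0.30 for NDUFA5 and 0.19 for SDHD, and neither was called. ATP5MK stood at 237 and 228 CPM in knockout cells with NORAD siRNA and 165 and 172 CPM with control siRNA, against 158 and 175 CPM in wild-type cells with NORAD siRNA and 169.9 and 177 CPM with control siRNA. Its log2 fold change was 0.24 ± 0.07 (SE; edgeR adjusted p = 0.044), and under control siRNA the knockout libraries did not lie above the wild-type ones.

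**Figure D3:**
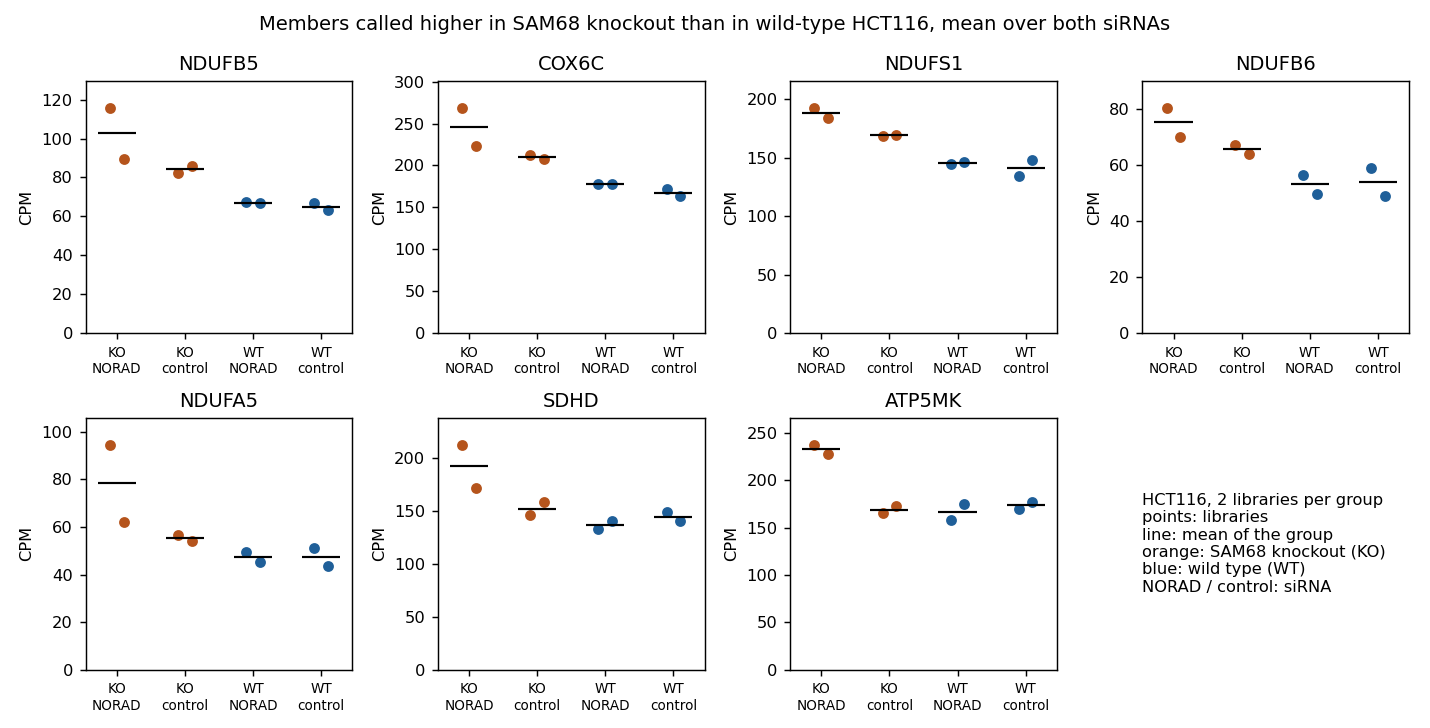
CPM of the 7 genes called higher in SAM68 knockout than in wild-type HCT116, with a point for each library and a bar for the mean of each group of 2. The knockout libraries lie above all wild-type libraries for NDUFB5, COX6C, NDUFS1, NDUFB6 and NDUFA5, and overlap them for SDHD and ATP5MK.

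The calls depended on single libraries. Of the 7 genes, 0 stayed called without wild-type NORAD siRNA replicate 1, 1 without replicate 2 of that group, 1 without knockout NORAD siRNA replicate 1 and 6 without replicate 2 of that group. Without knockout control siRNA replicate 1, 4 stayed called, and 2 without replicate 2. Without wild-type control siRNA replicate 1, 3 stayed called, and 4 without replicate 2. The share of all genes called in these fits ran from 1.43% to 22.2%. Over 15 alternative settings the edgeR or DESeq2 adjusted p of NDUFB5 ran from 2.7e-05 to 0.0687 and its log2 fold change from 0.27 to 0.60. The called genes are low in GC content, from 35.9% in NDUFA5 to 45.8% in ATP5MK, against the median of 49.9%. Across the 85 genes the log2 fold change ran with GC content at a Spearman's rho of -0.75, and across the 13506 genes with a GC value at -0.64. With GC content and length as an offset in the fit, 4 of the 7 stayed called (NDUFB5, COX6C, NDUFS1 and NDUFB6), and their fold changes were smaller. That fit called 9 of the 85 genes higher and 1, COX8A, lower, against 14.9% of all genes.

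**Figure D4:**
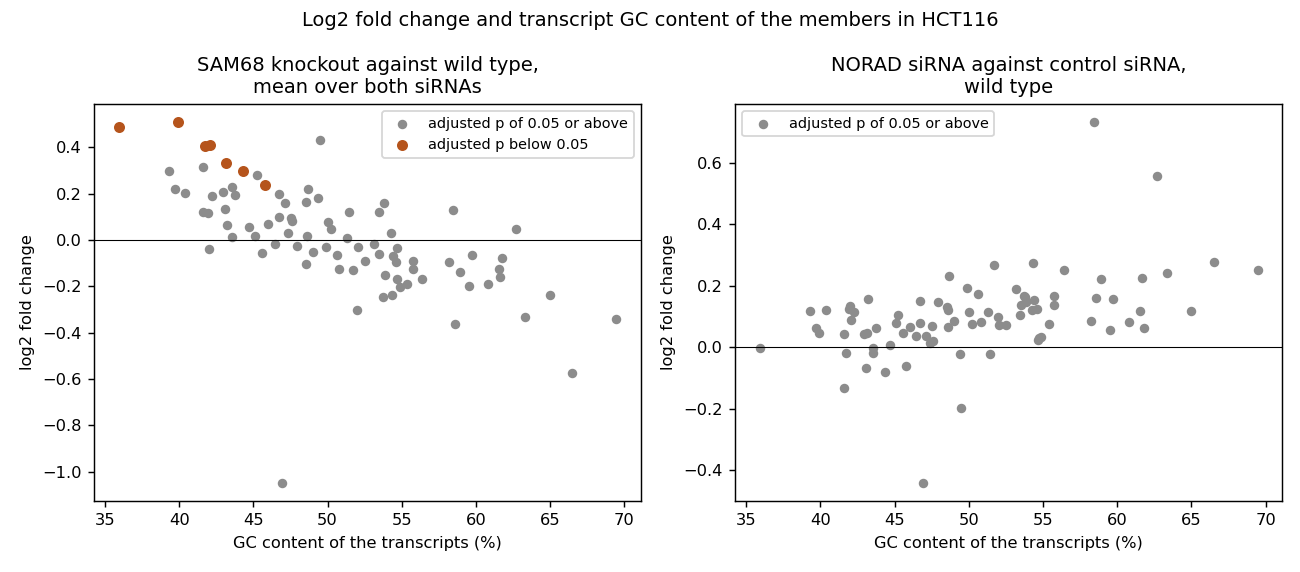
Log2 fold change against GC content of the transcripts for the 85 tested genes in HCT116, for SAM68 knockout against wild type as the mean over both siRNAs (left) and for NORAD siRNA against control siRNA in wild type (right). On the left the 7 called genes (orange) lie at 35.9% to 45.8% GC and rho is -0.75, and on the right rho is 0.51 and no gene is called.

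In the same knockout comparison, where 17.6% of all genes were called, 10 of 51 assembly factors were called higher and 1 lower (21.6%). Of 21 tested regulators of mitochondrial genes, 4 were called higher and 0 lower (19.0%), and of 19 citrate cycle genes 4 higher and 1 lower (26.3%). Mitochondrial ribosomal protein genes had 8 of 78 called higher and 0 lower (10.3%), and cytosolic ones 2 of 82 higher and 0 lower (2.44%). Of 19 glycolysis genes, 1 was called higher and 0 lower (5.26%).

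The comparison of the lines gave the most calls. With control siRNA in both, 6 of 85 genes were higher in U2OS than in wild-type HCT116 and 50 lower. That is 65.9% of the genes, against 65.4% of all 16444 tested genes, of which 35.6% were called higher and 29.8% lower. The median log2 fold change of the respiratory chain genes was -0.62, against 0.10 for all genes. The scaling bears on that size: on plain CPM the median was -0.45, with all genes at 0.24, and on TPM it was -0.27, with all genes at 0.39. All 50 lower and 6 higher calls kept their direction on TPM. The choice of U2OS control bears on the size too. Within U2OS the median deviation was -0.15 and -0.32 with control siRNA, against 0.15 and 0.14 with the control plasmid. Summed over the 91 genes, the mean was 9111 CPM with control siRNA and 11672 CPM with the control plasmid in U2OS. In wild-type HCT116 with control siRNA it was 13811 CPM. Fewer of the 85 were called whichever library of the comparison was left out, but the share of all genes in those fits is not at hand. With 1 library left out, the median ran from -0.74 to -0.49. Cell line and experiment cannot be told apart, since the labels do not say whether the lines were handled side by side.

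Subunits of every complex were among the lower ones. ATP5F1D stood at 14.8 and 13.4 CPM in U2OS, against 128 and 56.7 CPM in HCT116, a log2 fold change of -2.71 ± 0.32 (SE; edgeR adjusted p = 4.89e-06). NDUFS7 stood at 7.17 and 5.10 CPM in U2OS, against 48.1 and 21.4 CPM in HCT116 (-2.51 ± 0.34, SE; adjusted p = 1.45e-05 by edgeR). UQCR11, whose start region is shown above, stood at 32.5 and 25.7 CPM in U2OS, against 182 and 104 CPM in HCT116 (-2.30 ± 0.30, SE; adjusted p = 1.08e-05 by edgeR). The groups of these genes lay far apart in spite of a wide spread within HCT116. Between the lines, the log2 fold change ran with GC content at a Spearman's rho of -0.41 across the 85 genes. Over the 16016 tested genes with a GC value it was -0.18. GC content is 69.5% in ATP5F1D, 66.5% in NDUFS7 and 53.7% in UQCR11. The part of GC content in these differences was not tested.

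Other complex I subunits followed. NDUFB7 had 16.03 and 16.6 CPM in U2OS, against 88.5 and 45.2 CPM in HCT116, and NDUFA7 had 17.6 and 16.6 CPM in U2OS, against 72.0 and 51.1 CPM in HCT116. NDUFB10 had 49.3 and 38.8 CPM in U2OS, against 161 and 132 CPM in HCT116, NDUFAB1 had 52.9 and 33.9 CPM in U2OS, against 136 and 122 CPM in HCT116, and NDUFV3 had 17.3 and 20.2 CPM in U2OS, against 43.3 and 36.8 CPM in HCT116. Their log2 fold changes ran from -2.04 (NDUFB7) to -1.10 (NDUFV3). The catalytic head of the ATP synthase was lower too, with ATP5F1A, the alpha subunit, at 459 and 411 CPM in U2OS, against 886 and 929.7 CPM in HCT116, and ATP5F1B at 638 and 545 CPM in U2OS, against 1342 and 1340.4 CPM in HCT116. UQCRC2 had 109 and 108 CPM in U2OS, against 197 and 229 CPM in HCT116.

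Among the 6 genes higher in U2OS, DMAC2L stood at 13.6 and 10.2 CPM, against 3.77 and 4.34 CPM in HCT116, a log2 fold change of 1.55 ± 0.26 (SE; edgeR adjusted p = 0.000126). COX7A2L, a relative of COX7A2 that takes part in joining complexes III and IV into supercomplexes, stood at 142 and 138 CPM in U2OS, against 89.9 and 81.0 CPM in HCT116 (0.71 ± 0.15, SE; adjusted p = 0.000952 by edgeR). ATP5MC2 stood at 207 and 197 CPM in U2OS, against 151 and 134 CPM in HCT116 (0.50 ± 0.19, SE; adjusted p = 0.0273 by edgeR). NDUFA12, an accessory subunit of complex I, had 57.0 and 54.7 CPM in U2OS, against 40.7 and 38.2 CPM in HCT116. UQCRFS1, the Rieske iron-sulfur protein of complex III, had 191 and 157 CPM in U2OS, against 124 and 126 CPM in HCT116.

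Other lists also had more lower than higher calls in U2OS against HCT116. Mitochondrial ribosomal protein genes had 2 of 78 called higher and 50 lower with a median of -0.63, and cytosolic ones 3 of 84 higher and 52 lower with a median of -0.69. Glycolysis genes had 1 of 19 called higher and 13 lower with a median of -0.80, and assembly factors 2 of 51 higher and 27 lower with a median of -0.53. Of 19 citrate cycle genes 1 was called higher and 9 lower, and of 22 regulators of mitochondrial genes 2 higher and 14 lower.

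Ratios within a library do not depend on the scaling, and paralogs differed between the lines there as well. These ratios are not corrected for GC content, which is 58.2% in ATP5MC2, 54.3% in ATP5MC1, 43.6% in COX7A2L and 46.7% in COX7A2. The part of GC content in them was not tested. The c subunit of the ATP synthase ring is encoded by ATP5MC1, ATP5MC2 and ATP5MC3, whose mature proteins are the same. ATP5MC2 stood at 572 to 696 TPM in U2OS (median 615) and 293 to 347 TPM in HCT116 (median 319.6), and ATP5MC1 at 311 to 486 TPM in U2OS (median 389.6) and 515 to 625 TPM in HCT116 (median 552). ATP5MC3 was the lowest of the group in both, with 108 to 148 TPM in U2OS and 173 to 212 TPM in HCT116. The ratio of ATP5MC2 to ATP5MC1 was 1.36 to 1.98 over the 8 U2OS libraries (median 1.60) and 0.521 to 0.609 over the 8 HCT116 libraries (median 0.575), without overlap. ATP5MC2 thus made up 51.0% to 59.4% of the c subunit TPM in U2OS and 27.7% to 30.5% in HCT116, and ATP5MC1 made up 30.0% to 37.6% in U2OS and 50.2% to 53.8% in HCT116.

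COX7A2L and COX7A2 differed between the lines in the same way. The ratio of COX7A2L to COX7A2 was 0.705 to 0.963 in U2OS (median 0.818) and 0.208 to 0.268 in HCT116 (median 0.246). COX7A2L stood at 296 to 343 TPM in U2OS and 138 to 184 TPM in HCT116, while COX7A2 stood at 337 to 439.9 TPM in U2OS and 588 to 798 TPM in HCT116. With SAM68 siRNA the ratio of COX7A2L to COX7A2 was 0.958 and 0.963, against 0.738 and 0.878 with control siRNA, and with the SAM68 plasmid 0.705 and 0.799, against 0.727 and 0.837 with the control plasmid. These ratios are given as values, without a test. In HCT116 the ratio of ATP5MC2 to ATP5MC1 was 0.521, 0.569, 0.528 and 0.544 in the 4 knockout libraries and 0.600, 0.582, 0.609 and 0.583 in the 4 wild-type libraries, a gap without overlap that was singled out after its values were seen.

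**Figure D5:**
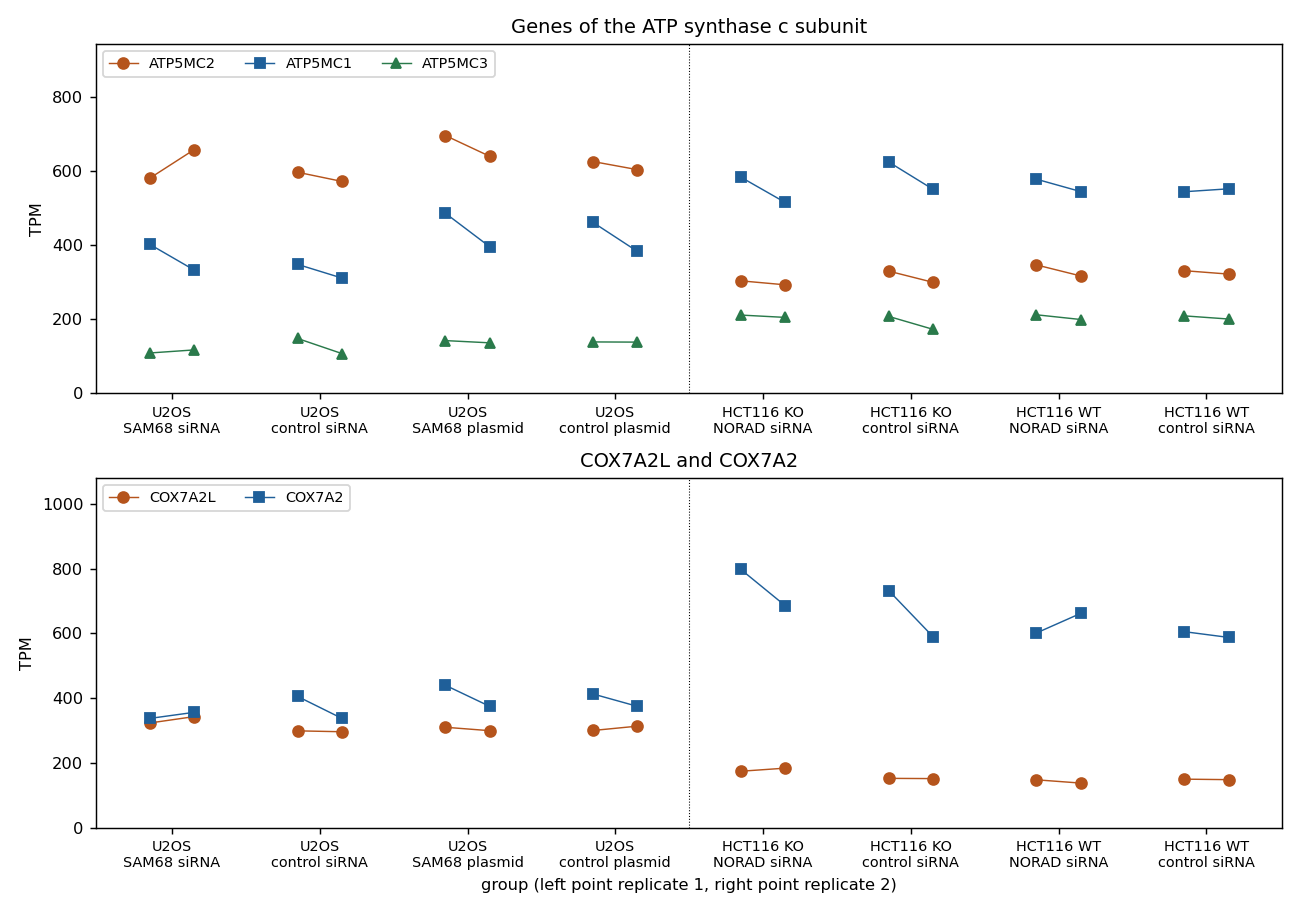
TPM of the 3 genes of the ATP synthase c subunit (top) and of COX7A2L and COX7A2 (bottom) in each of the 16 libraries, with both libraries of a group joined. ATP5MC2 lies above ATP5MC1 in all 8 U2OS libraries and below it in all 8 HCT116 libraries, and COX7A2 lies further above COX7A2L in HCT116.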

How the data were processed

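Poly(A) RNA of 16 libraries was measured by strand-specific mRNA sequencing, per the labels' protocols. Per the file headers, the authors deposited RSEM gene estimates for each library, with no pooling: expected counts (estimated read counts, not normalized), TPM (a level per transcript length, as deposited by the authors) and the effective length in bases, another deposited value. The submitters' processing notes name STAR and RSEM, with the genome build hg19. No version is given there, and strand use in counting is not stated, so antisense and overlapping genes are uncertain.

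The members and all lists were chosen with earlier results of these data known. Gene numbers were matched to RefSeq symbols (GRCh38.p14) for 25945 of 27434 rows, and 3 members were named through GENCODE 29. GC content came from the same tables and served, with length, as an offset in an alternative. Expected counts were rounded, filtered with filterByExpr, scaled by TMM, and then fitted by the quasi-likelihood method of edgeR (version 4.0.16, under R 4.3.3 with limma 3.58.1) with Benjamini-Hochberg adjustment over all tested genes, each line apart (15658 genes in U2OS, 13764 in HCT116). The lines were compared in 1 fit over 16444 genes. SE is the log2 fold change divided by the square root of the F statistic. A count of 0 or a small count is limited by depth, 11349545 to 27387412 per library. Replicate numbers follow the titles; for SAM68 plasmid replicate 2 another label carries a different number. Replicates differed by more than sampling noise (chi-square per gene 7.83 to 60.1).

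Of the 91 members, 84 passed the filter in U2OS, 85 in HCT116 and 85 over both lines, and 6 passed in neither line. The genes named were every called member (up to 10 per comparison), otherwise the 2 with the smallest p in each direction, the highest and lowest member of each complex, the paralog groups, the genes of complex II, CYC1, CYCS and ATP5IF1, and the 5 most different called members of each direction between the lines with at least 5 CPM. COXFA4 and its relative carry their RefSeq names. The scripts were tested on simulated data. DESeq2 1.42.0, RLE size factors, no filter, length and GC offsets, a replicate block and leaving out each library were the alternatives.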

Additional observations from a re-analysis of the deposited data

How the results depend on the processing

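Across all alternatives the calls of 0 held for both SAM68 comparisons in U2OS, for NORAD siRNA in wild-type and knockout HCT116 and for their difference. Leaving out 1 library at a time moved the median log2 fold change of the respiratory chain genes from -0.119 to 0.131 for SAM68 siRNA, from -0.087 to 0.455 for the SAM68 plasmid and from -0.175 to 0.154 for the difference of the NORAD effects. For knockout against wild type under control siRNA, the share of all genes called in the alternative fits is not at hand. There the calls among the respiratory chain genes numbered 1 with no filter on low counts, 1 with the GC and length offset and 4 with that offset and the replicate block. For the mean over both siRNAs they numbered 11 with DESeq2 (19.4% of all genes were called), 16 with no filter (9 higher, 7 lower; 19.9% of all genes), 28 with the replicate block (19 higher, 9 lower; 38.1% of all genes) and 22 with the GC and length offset and the block (24.3% of all genes), and 0 to 9 with 1 library left out.

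Between the lines the GC and length offset gave a median of -0.807, also together with the replicate block. With 1 library left out it ran from -0.742 to -0.485 and the calls from 35 to 48. On mean levels the median difference was -0.614, against -0.455 on CPM without TMM and -0.273 on TPM. Several genes changed sign when 1 library was left out: NDUFAB1 ran from -0.581 to 0.0559 with SAM68 siRNA and UQCRHL from -0.911 to 0.318 with the SAM68 plasmid. With NORAD siRNA in wild-type cells, CYCS ran from -0.265 to 0.0157, COX6B2 from -0.0451 to 1.18 and DMAC2L from -0.599 to 0.0899. COX8A ran from -0.53 to 0.0522 for knockout under control siRNA. The cause was not tested.

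The replicate numbers are shared between groups but nothing in the labels pairs the samples. Deviations of same-numbered libraries correlated at 0.21 to 0.50 in the HCT116 comparisons, 0.49 for SAM68 siRNA, and -0.14 for the SAM68 plasmid and between the lines. With a lone library in a group, its spread was taken from the other groups.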
